A study of Mus musculus with 14 samples.

Results

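The genes described here encode the Ragulator complex (Lamtor1 to Lamtor5) and the Rag GTPases (Rraga, Rragb, Rragc and Rragd). They were taken as every probe set of the array whose annotation names 1 of these 9 genes and no other. The rule found 12 probe sets for 8 of the genes, out of 22626 probe sets and 12393 genes on the array, and expression of Rragb was not analysed here. The genes were chosen partly on earlier results of these arrays, and the values that could have led to the choice are the log2 values in the 3 groups. Differences between groups at these 12 probe sets are therefore given as a description, with a standard error and a 95% interval and without a p-value.

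Ragulator is the scaffold that holds nutrient signalling on the lysosome. Lamtor1 is anchored in the lysosomal membrane by lipids and wraps around a Lamtor2-Lamtor3 pair and a Lamtor4-Lamtor5 pair. The assembly carries a Rag heterodimer, RagA or RagB joined to RagC or RagD, and when amino acids are plentiful the Rag pair binds the Raptor subunit of mTORC1 and brings this growth kinase to the lysosome, where Rheb activates it. In blood-forming tissue the complex is known through inherited deficiency of human LAMTOR2, which causes immunodeficiency with a shortage of neutrophils.

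Sca1+ cKit- bone marrow cells, which carry one stem cell antigen and lack the stem cell factor receptor, were sorted from mice with 1 of 3 implants, and each sample was hybridised to 1 mouse Affymetrix array. The Matrigel group (n = 4) carried the basement membrane extract without tumour cells, the Instigator group (n = 5) a BPLER tumour labelled as instigating, and the Non-instigator group (n = 5) a size-matched PC3 tumour labelled as non-instigating. BPLER is a human mammary epithelial line transformed with oncogenes, and PC3 is a human prostate carcinoma line. An instigating tumour promotes the outgrowth of other, indolent tumour cells elsewhere in the same host. The labels name no host strain, age or animal, so it is not known whether arrays are separate animals, and the spread between arrays may be technical. The description of Instigator 5 names the PC3 tumour, while its title and source name the BPLER tumour, and it was kept with the Instigator arrays.

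Values are log2 of the deposited RMA intensity, so that a difference of 1 is a doubling. Instigator 4 stood apart, with a 5' minus 3' difference of -3.41 at the beta-actin control against -0.81 to -0.51 on the other 13 arrays, and -4.03 against -1.16 to -0.73 at the Gapdh control. Matrigel 3 had a median of 7.18 against 6.90 to 7.01 on the other 13 arrays. Ptprc, the pan-leukocyte antigen CD45, averaged 11.37 ± 0.26 in the 4 Matrigel, 11.38 ± 0.33 in the 5 Instigator and 11.41 ± 0.22 in the 5 Non-instigator arrays (mean ± SD). Kit, the receptor selected against, averaged 7.52 ± 0.37, 7.58 ± 0.22 and 7.37 ± 0.45 in the same order and lay at percentile 57.6 of all probe set means. No single-gene probe set carries the name of Ly6a, the Sca1 gene, which was not analysed here. Limma called 0 of 22626 probe sets in each of the 3 comparisons at a Benjamini-Hochberg adjusted p under 0.05, a background of 0%. The 95% interval excluded 0 (an unadjusted p under 0.05) at 10.3% of all probe sets when Instigator arrays were set against Matrigel, at 5.6% when they were set against Non-instigator, and at 2.11% between Non-instigator and Matrigel.

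The start regions of Lamtor1 and Lamtor2 are shown because the brightest probe sets of these genes differed most between the groups, in opposite directions. Each line gives the 250 bases before the annotated start of the gene in the gene's own direction, from RefSeq on GRCm38.p6, at chr7:101905587-101905836 (plus strand) for Lamtor1 and chr3:88552952-88553201 (minus strand) for Lamtor2. Capitals mark the E-box CACGTG, the core bound by TFEB and its relatives, which switch on lysosomal genes, and by other factors such as Myc.
Lamtor1: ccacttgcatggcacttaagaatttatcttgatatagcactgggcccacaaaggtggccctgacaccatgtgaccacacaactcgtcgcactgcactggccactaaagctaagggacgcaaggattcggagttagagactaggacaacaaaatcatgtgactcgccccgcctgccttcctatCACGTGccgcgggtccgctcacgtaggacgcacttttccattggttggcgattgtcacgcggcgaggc
Lamtor2: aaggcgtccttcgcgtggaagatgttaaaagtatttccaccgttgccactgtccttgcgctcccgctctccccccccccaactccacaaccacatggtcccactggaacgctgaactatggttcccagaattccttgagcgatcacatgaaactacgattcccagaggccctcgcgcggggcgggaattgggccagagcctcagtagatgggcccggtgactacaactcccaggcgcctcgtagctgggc

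The E-box of Lamtor1 begins 68 bases before the start, and the Lamtor2 window holds none. Both windows hold 16 CpG pairs, where the median over 32851 RefSeq start windows of the same length is 6. Of the 8 members with a start window in the table, Lamtor1, Lamtor4, Rragb and Rragc hold the E-box, 4 of 8 beside 6.02% of all windows. In Lamtor4 and Rragb it occurs 2 times, and the Rragb window lies inside the gene as RefSeq bounds it. The E-boxes of the other genes are shown with 40 bases of context, at chr5:138255345-138255384 for Lamtor4, chrX:153139905-153139944 for Rragb and chr4:123917304-123917343 for Rragc, all on the plus strand. For Lamtor4 the capitals mark the outer of its E-boxes, and for Rragb the one nearer the start.
Lamtor4: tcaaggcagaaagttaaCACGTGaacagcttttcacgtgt
Rragb: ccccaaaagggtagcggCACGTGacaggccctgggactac
Rragc: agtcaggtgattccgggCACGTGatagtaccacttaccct

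Further motifs were searched on both strands of the same windows. The extended E-box TCACGTGA, which contains the E-box, was in 0 of 8 windows and 0.785% of all. The NRF1 motif was in 0 of 8 and 0.782% of all, and the cyclic AMP response element TGACGTCA in 0 of 8 and 1.55% of all. The ETS motif CCGGAAG was in 1 of 8, that of Rraga, and 6.91% of all. These matches are letters in a window and not measured binding sites. No start window for Lamtor3 was matched.

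Lamtor1, the membrane anchor of Ragulator, lay higher in Instigator arrays at its brightest probe set, 1417463_a_at. The Matrigel arrays 1 to 4 read 12.10, 11.92, 11.95 and 12.18. The Instigator arrays 1 to 5 read 12.51, 12.33, 12.44, 12.20 and 12.28, and the Non-instigator arrays 1 to 5 read 12.07, 12.08, 11.84, 11.73 and 12.01. Every Instigator array lay above every array of both other groups, with Instigator 4 nearest to them, while Matrigel and Non-instigator arrays overlapped. The group means ± SD were 12.35 ± 0.13 for the 5 Instigator, 12.04 ± 0.12 for the 4 Matrigel and 11.95 ± 0.16 for the 5 Non-instigator arrays. Instigator exceeded Matrigel by 0.31 (SE 0.10, 95% interval 0.10 to 0.53, 1.24-fold). It exceeded Non-instigator by 0.40 (SE 0.09, 95% interval 0.20 to 0.60, 1.32-fold), at percentile 98.8 of the differences over all probe sets. Non-instigator against Matrigel differed by -0.09 (95% interval -0.30 to 0.12). Complete separation was found at 2.69% of all probe sets against Matrigel, 1.02% with the Instigator arrays higher and 1.68% with them lower, and at 1.2% against Non-instigator, 0.751% with them higher. Among the 12 member sets this was the 1 set that separated with the Instigator arrays higher in each comparison, and nothing is read from that count, because these values may have led to the choice of genes.

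The separation of Lamtor1 from both groups was also complete without Instigator 4, and without Instigator 4 and Matrigel 3. With Instigator 5 counted as Non-instigator, its value of 12.28 lay among the remaining Instigator arrays, which ended the separation of the tumour groups, and the difference was 0.37 (95% interval 0.14 to 0.59). The interval excluded 0 under 18 of 18 alternatives against Matrigel and 19 of 19 against Non-instigator, with differences from 0.27 to 0.39 and from 0.35 to 0.48. These alternatives reuse the same arrays, and 9 of the 18 and 10 of the 19 leave out 1 array. Their agreement is therefore not separate support, and these values may have led to the choice of genes.

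The other Lamtor1 probe sets did not repeat this separation. At 1434124_x_at, a type of set whose probes may match further transcripts, Matrigel arrays ran from 8.68 to 9.17, Instigator arrays from 8.84 to 9.15 and Non-instigator arrays from 8.83 to 8.99. Instigator lay 0.12 above Matrigel (95% interval -0.10 to 0.34) and 0.13 above Non-instigator (95% interval -0.08 to 0.33) there. Without Matrigel 4 the first difference was 0.21 and its interval, 0.0056 to 0.42, excluded 0. That was the case in 1 of 18 alternatives, over which the difference ran from 0.05 to 0.21. At 1448718_at the Instigator arrays read 8.75, 8.64, 9.01, 7.86 and 8.56, Matrigel ran from 8.36 to 8.89 and Non-instigator from 8.53 to 8.81. Instigator 4 was the lowest of all 14 arrays at that set, and the Instigator difference was -0.07 against Matrigel and -0.10 against Non-instigator, each with an interval that includes 0. Without Instigator 4 these differences turned to 0.11 and 0.08. The 3 sets thus gave different sizes for 1 gene, and which part of the transcript each set reads was not analysed here.

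**Figure D1:**
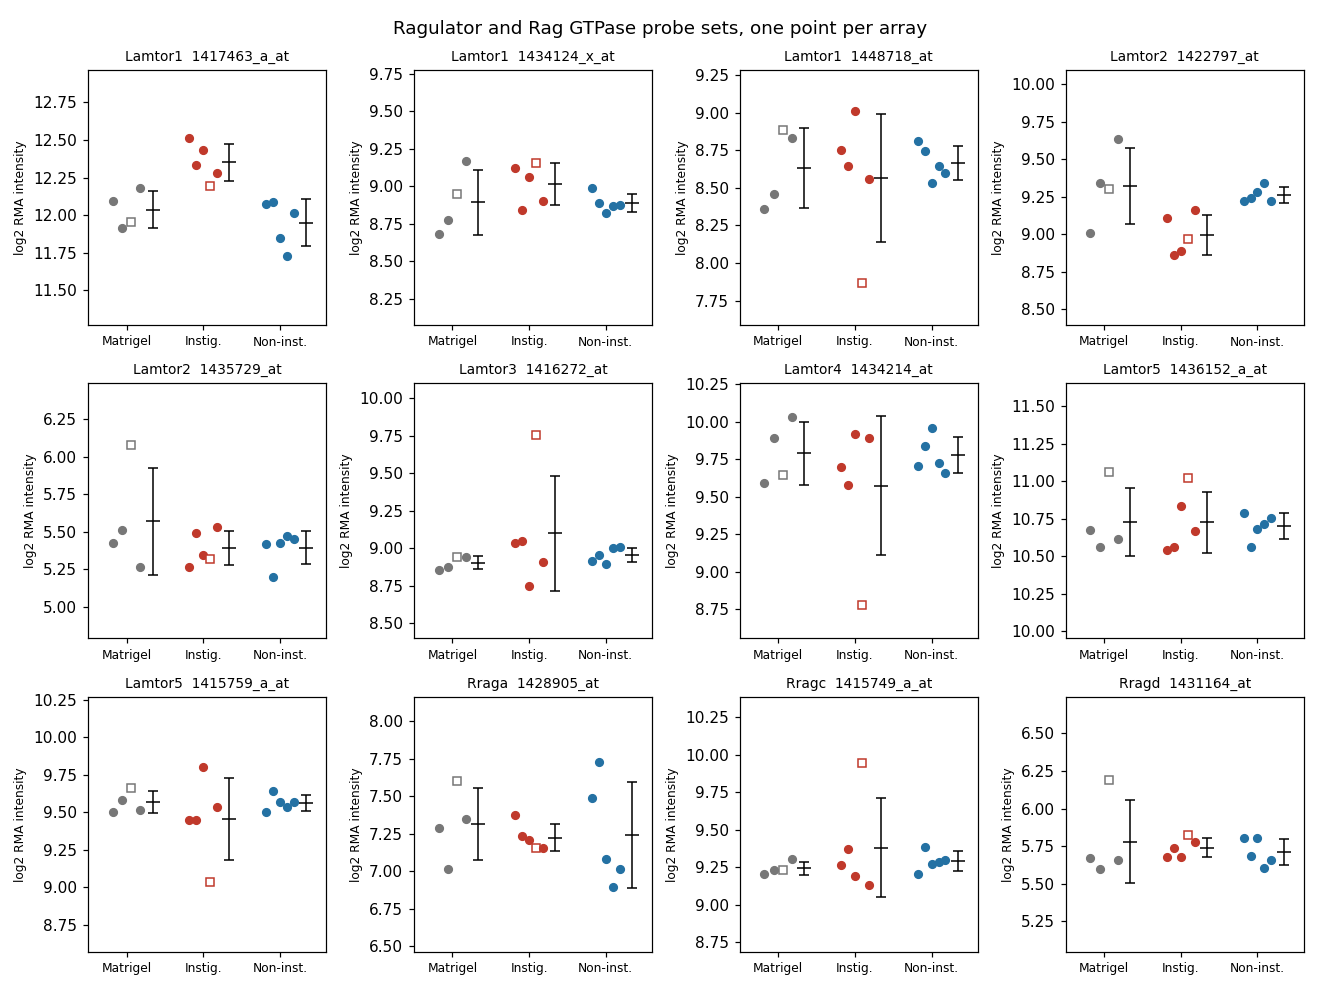
Log2 RMA intensity of each array (y axis) at the 12 probe sets, with Matrigel in grey (n = 4), Instigator in red (n = 5) and Non-instigator in blue (n = 5); every panel spans the same log2 range, open squares are Instigator 4 and Matrigel 3, and black bars are mean and SD. At Lamtor1 1417463_a_at all Instigator arrays, 12.20 to 12.51, lie above the other groups, and at Lamtor2 1422797_at they lie at 8.86 to 9.17, below the Non-instigator arrays.

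Lamtor2, which pairs with Lamtor3 to form the part of Ragulator that also binds MEK1, lay lower in Instigator arrays at 1422797_at. The Matrigel arrays read 9.01, 9.34, 9.30 and 9.63, the Instigator arrays 9.11, 8.86, 8.89, 8.97 and 9.17, and the Non-instigator arrays 9.22, 9.24, 9.28, 9.35 and 9.22. All Instigator arrays lay below all Non-instigator arrays, whereas Matrigel 1 lay among the Instigator arrays. Means ± SD were 8.998 ± 0.13 for the 5 Instigator, 9.32 ± 0.25 for the 4 Matrigel and 9.26 ± 0.05 for the 5 Non-instigator arrays. Instigator differed from Matrigel by -0.32 (SE 0.11, 95% interval -0.56 to -0.09) and from Non-instigator by -0.26 (SE 0.10, 95% interval -0.48 to -0.05). Non-instigator differed from Matrigel by -0.06 (95% interval -0.29 to 0.17).

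Complete separation with the Instigator arrays lower than Non-instigator was found at 0.446% of all probe sets, and Lamtor2 was the 1 member of 12. It held without Instigator 4 and with Instigator 5 moved to the other group, where the gap was between 9.11 and 9.17. The interval against Non-instigator reached above 0 without Instigator 2 (-0.23, 95% interval -0.47 to 0.0066) and without Instigator 3 (-0.24, 95% interval -0.48 to 0.0013). Against Matrigel the difference was -0.22 without Matrigel 4 and -0.43 without Matrigel 1. The interval excluded 0 in all 18 alternatives, which reuse the same arrays and are not separate support.

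The dim second set of Lamtor2, 1435729_at, lay at percentile 24.6 of all probe set means, and all groups overlapped there. Matrigel arrays ran from 5.27 to 6.08, Instigator arrays from 5.27 to 5.54 and Non-instigator arrays from 5.20 to 5.48. The highest value belonged to Matrigel 3, and Instigator differed from Non-instigator by -0.0031 (95% interval -0.27 to 0.27). From Matrigel, Instigator differed by -0.18 (95% interval -0.47 to 0.11) and Non-instigator by -0.17 (95% interval -0.46 to 0.11). Without Matrigel 3 these differences from Matrigel were -0.0071 and -0.004.

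Lamtor3, the partner of Lamtor2, overlapped between all groups at 1416272_at. Matrigel arrays read 8.86, 8.88, 8.94 and 8.94, Non-instigator arrays ran from 8.90 to 9.01, and Instigator arrays read 9.04, 9.05, 8.75, 9.75 and 8.91. The high Instigator value is that of Instigator 4. The mean difference of Instigator from Matrigel was 0.20 (SE 0.15, 95% interval -0.12 to 0.51) with all arrays and 0.03 without Instigator 4.

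Lamtor4 and Lamtor5 form the other small pair of the scaffold. Lamtor4 read 9.70, 9.58, 9.92, 8.78 and 9.89 in Instigator arrays 1 to 5 at 1434214_at, with Matrigel at 9.59 to 10.03 and Non-instigator at 9.66 to 9.96. Its difference from Matrigel was -0.22 (SE 0.19, 95% interval -0.62 to 0.19), and without Instigator 4 it was -0.02. The brighter Lamtor5 set, 1436152_a_at, had group means within 0.03 of each other on the log2 scale, with means ± SD of 10.73 ± 0.23 in Matrigel, 10.73 ± 0.20 in Instigator and 10.70 ± 0.09 in Non-instigator arrays. The other Lamtor5 set, 1415759_a_at, averaged 9.57 ± 0.07, 9.46 ± 0.27 and 9.56 ± 0.05 in the same order. Instigator 4 read 11.02 at the first, above the other Instigator arrays (10.54 to 10.84), and 9.04 at the second, below the other Instigator arrays (9.45 to 9.80). Thus the 2 sets of Lamtor5 departed in opposite directions on that array.

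Rraga, which encodes RagA, varied more within the Non-instigator group than between groups. At 1428905_at the Non-instigator arrays read 7.49, 7.73, 7.08, 6.90 and 7.02, the Matrigel arrays 7.29, 7.02, 7.60 and 7.35, and the Instigator arrays 7.37, 7.23, 7.21, 7.15 and 7.16. The Instigator arrays spanned the least, with an SD of 0.09 (n = 5) against 0.35 (n = 5) in Non-instigator and 0.24 (n = 4) in Matrigel arrays, and lay inside the range of both. The Instigator mean differed by -0.09 from Matrigel and by -0.02 from Non-instigator, and the Non-instigator mean by -0.07 from Matrigel, each with an interval that includes 0. Whether the spreads differ was not tested.

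Rragc, which encodes RagC, read 9.21, 9.23, 9.23 and 9.30 in Matrigel arrays, 9.27, 9.37, 9.19, 9.95 and 9.13 in Instigator arrays and 9.21, 9.39, 9.28, 9.28 and 9.30 in Non-instigator arrays at 1415749_a_at. All arrays except Instigator 4 lay between 9.13 and 9.39. The Instigator difference from Matrigel was 0.14 (SE 0.13, 95% interval -0.14 to 0.42), and -0.0025 without Instigator 4.

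Rragd, which encodes RagD, is a dim set (1431164_at, percentile 29.2 of all means). Matrigel arrays read 5.67, 5.60, 6.19 and 5.65, Instigator arrays 5.68 to 5.82 and Non-instigator arrays 5.60 to 5.80. The groups overlapped, Matrigel 3 was the highest array, and no difference between group means exceeded 0.07 in size. Without Instigator 4 and Matrigel 3 the Instigator arrays, 5.68 to 5.77, lay just above the Matrigel arrays, 5.60 to 5.67, and no other member newly separated in that setting. There 2 of 12 member sets separated higher in Instigator than in Matrigel arrays, with fewer arrays to separate, beside 4.34% of all probe sets higher and 2.86% lower.

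**Figure D2:**
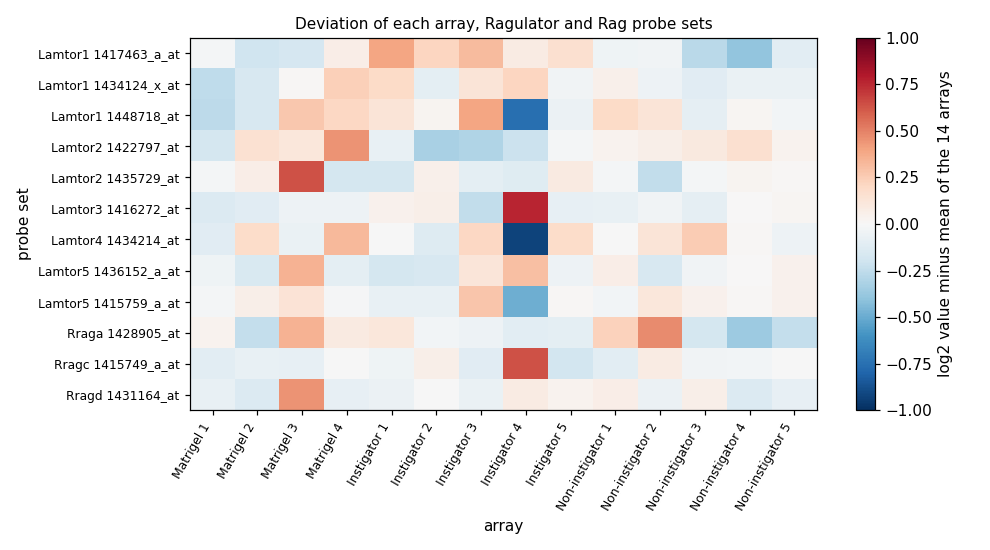
Each cell is the log2 value of 1 array (x axis) at 1 probe set (y axis) minus the mean of that set over the 14 arrays, on a colour scale from -1 to 1, red above the mean and blue below. Instigator 4 stands out in both directions, high at Lamtor3 and Rragc and low at Lamtor4 and Lamtor1 1448718_at, and Matrigel 3 is high at Lamtor2 1435729_at and Rragd.

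Over the 12 probe sets, Instigator 4 lay above the 4 other Instigator arrays at 5, below them at 5 and among them at 2. Over all 22626 probe sets it lay outside their range at 67.3%. From the mean of the others it departed by 0.82 at Lamtor3, 0.70 at Rragc, -0.99 at Lamtor4 and -0.88 at Lamtor1 1448718_at. The control values of that array are given above, and their part in these departures was not tested. At the sets that separated the groups the departures were smaller, -0.19 at Lamtor1 1417463_a_at and -0.04 at Lamtor2 1422797_at.

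For Instigator against Matrigel 4 of the 12 probe sets lay above 0 and 8 below, where 42.8% of all probe sets lay above 0. The median was -0.05 beside -0.03 over all probe sets, and it turned to 0.0226 with each array centred on its median, to 0.0558 with array weights and to 0.0295 without Instigator 4 and Matrigel 3. For Non-instigator against Matrigel 3 lay above and 9 below (36.2% of all above, median -0.02 beside -0.04 over all), and for Instigator against Non-instigator 6 lay above and 6 below (55.8% of all above, median 0.01 beside 0.02 over all). The comparisons with Matrigel share those 4 arrays. Limma called 0 of 12 in each comparison. The 95% interval excluded 0 at 2 of 12 sets in both comparisons with Instigator arrays, the sets of Lamtor1 (higher) and Lamtor2 (lower) described above, and at 0 of 12 between Non-instigator and Matrigel. Over all probe sets it did so at 3.27% higher and 7% lower against Matrigel, at 2.24% higher and 3.36% lower against Non-instigator, and at 0.601% higher and 1.51% lower between Non-instigator and Matrigel. Those last groups separated completely at 0 of 12 sets, beside 0.897% of all probe sets (0.287% higher and 0.61% lower).

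**Figure D3:**
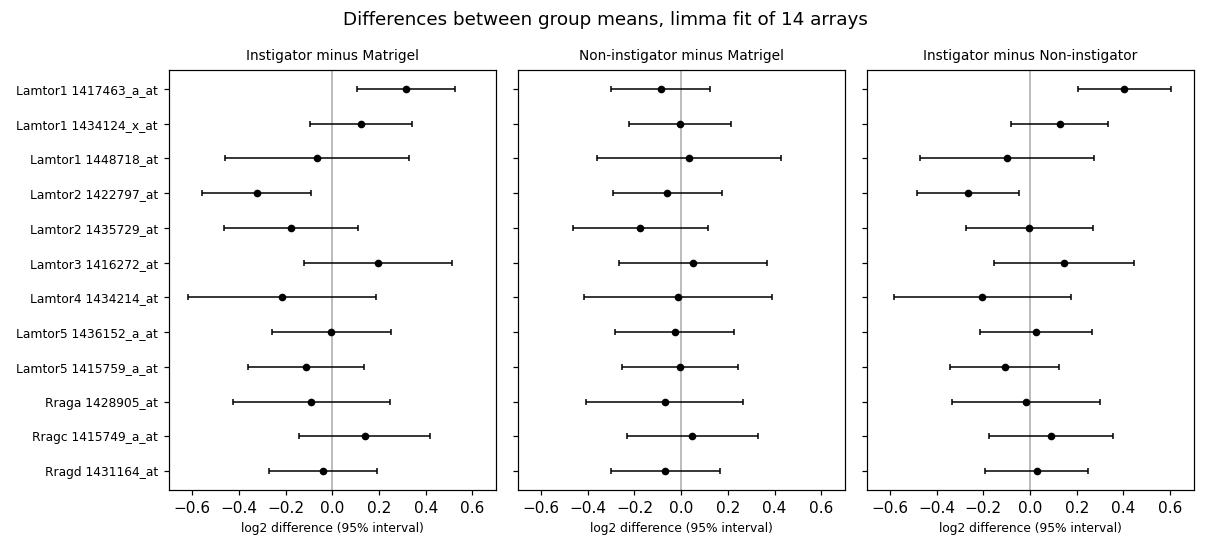
Difference between group means on the log2 scale (x axis) with its 95% interval from the limma fit of 14 arrays, for each of the 12 probe sets (y axis) and the 3 comparisons. Lamtor1 1417463_a_at lies at 0.31 and 0.40 and Lamtor2 1422797_at at -0.32 and -0.26 in the comparisons with Instigator arrays, and the other intervals include 0.

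Limma called no marker of the other cell types that the sort could hold. It called 0 of 22626 probe sets in each comparison, so nothing about these cell types is read from that. The single-array ranges of mean log2 level overlapped between the groups for the neutrophil, B lineage and dendritic cell lists. The neutrophil list (11 of 12 genes measured) had a mean log2 level of 12.18 to 12.39 in Instigator, 11.96 to 12.20 in Matrigel and 11.88 to 12.36 in Non-instigator arrays. Its summed intensity was 67200 to 74100, 61300 to 66300 and 57600 to 72300 in the same order. By summed intensity every Instigator array thus lay above every Matrigel array, with a narrow gap between 66300 and 67200, while Non-instigator arrays overlapped both groups. Of the neutrophil genes, 10 of 11 lay higher in Instigator than in Matrigel arrays and 10 of 11 higher than in Non-instigator arrays. Over all genes the shares were 45.9% and 58.2% in these comparisons. B lineage genes (11 of 12 measured) had mean levels of 7.70 to 8.87 in Instigator, 8.62 to 9.17 in Matrigel and 8.11 to 9.33 in Non-instigator arrays, with summed intensities of 2920 to 7030, 5850 to 8620 and 3900 to 10100. Dendritic cell genes (9 of 10 measured) ran from 8.26 to 9.16, 9.06 to 9.56 and 8.43 to 9.39 in the same order, with summed intensities of 5390 to 9030, 8580 to 11100 and 5670 to 10200. Of the B lineage genes, 1 of 11 lay higher in Instigator than in Matrigel arrays and 1 of 11 higher than in Non-instigator arrays. For the dendritic cell genes these counts were 1 of 9 and 2 of 9. The median differences of Instigator from Matrigel and from Non-instigator were 0.18 and 0.11 for the neutrophil list. They were -0.49 and -0.35 for B lineage and -0.66 and -0.29 for dendritic cell genes. The part of these cell types in the Lamtor1 and Lamtor2 values was not tested, and in bulk samples fewer cells of a type and less RNA per cell cannot be told apart.

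The other 8 marker lists had median differences between Instigator and Matrigel of 0.46 (basophil, mast cell and eosinophil), 0.01 (stromal), -0.06 (erythroid), -0.09 (NK cell), -0.15 (megakaryocyte), -0.15 (macrophage and monocyte), -0.18 (plasma cell) and -0.28 (T cell). Between Instigator and Non-instigator arrays the medians were 0.05, -0.05, -0.22, -0.42, -0.07, -0.0034, -0.35 and -0.32 in that order. Genes higher in Instigator than in Matrigel arrays, and than in Non-instigator arrays, numbered 9 and 6 of 10 for basophil, mast cell and eosinophil. They numbered 0 and 0 of 7 for NK cell, 0 and 0 of 7 for plasma cell and 0 and 0 of 8 for T cell. For stromal they were 4 and 3 of 8, and for erythroid 2 and 0 of 7. Megakaryocyte had 2 and 1 of 6, and macrophage and monocyte 3 and 4 of 9. In the basophil, mast cell and eosinophil list, Instigator 4 had the highest mean log2 level of all arrays (8.62). Matrigel 3 had the lowest (7.36). The other Instigator arrays ran from 7.96 to 8.15 and the other Matrigel arrays from 7.70 to 8.04, and these ranges overlapped. The difference of 0.46 includes Instigator 4 and Matrigel 3, and all marker list medians are given with every array included.

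Of the 72 other pathway genes listed around Ragulator, 49 were measured, each at its brightest probe set, and limma called 0 of 49 in each comparison. At the unadjusted level the interval excluded 0 at 5 genes higher and 1 lower for Instigator against Matrigel (12.2%, beside 8.8% of all genes), 1 higher between Non-instigator and Matrigel (2.04%, beside 1.96%) and 2 higher and 1 lower between Instigator and Non-instigator (6.12%, beside 5.33%). Above 0 lay 29, 22 and 32 of the 49 in these comparisons, where the shares over all genes were 45.9%, 38.3% and 58.2%. The limma adjusted p was at least 0.439 for every gene named in the following paragraphs. With each array centred on its median, 37, 28 and 33 of 49 lay above 0, and over all genes 64.7%, 56.9% and 64.2%.

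The proton pump of the lysosome, the V-ATPase, senses amino acids together with Ragulator, and 15 of its 16 listed genes were measured. Higher in Instigator than in Matrigel arrays lay 13 of 15, with a median of 0.11 beside -0.02 over all genes, and 11 of 15 lay higher than in Non-instigator arrays, with a median of 0.16 beside 0.03. Against Matrigel, 6 of 15 lay higher in Non-instigator arrays (median -0.04). Without Instigator 4 the first median was 0.04, with 12 of 15 above 0, and the second 0.07, with 13 of 15. With the mean of all sets of a gene the medians were 0.03 in both. Atp6v0d1, a subunit of the membrane part of the pump, averaged 9.35 in Instigator and 8.96 in Matrigel arrays, a difference of 0.39 (SE 0.11, limma adjusted p = 0.439). Atp6ap2, an accessory subunit of the pump, differed by 0.38 (SE 0.18), and by 0.11 without Instigator 4 and Matrigel 3. Against Non-instigator Atp6v1b2, a subunit of the catalytic head, differed by 0.36 (SE 0.13, limma adjusted p = 0.813) and the membrane subunit Atp6v0a1 by 0.39 (SE 0.19), the latter by 0.23 without those arrays and by 0.02 over the mean of its 4 sets. Between Non-instigator and Matrigel the largest differences were those of Atp6v0a2 (0.20, SE 0.13) and Atp6v0d1 (0.19, SE 0.11), the former 0.05 without Matrigel 3 and 0.11 over the mean of its 3 sets.

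GATOR1, anchored to the lysosome by KICSTOR, switches RagA and RagB off, and GATOR2 opposes it. Of 7 GATOR1 and KICSTOR genes 4 were measured, 2 above and 2 below 0 for Instigator against Matrigel. The KICSTOR gene Itfg2 differed by 0.37 (SE 0.16), by 0.12 without Instigator 4 and Matrigel 3, and the GATOR1 gene Nprl3 by -0.16 (SE 0.14), or -0.06 without them. Nprl2, another GATOR1 gene, lay lower in Instigator than in Non-instigator arrays by -0.32 (SE 0.14). All 3 measured GATOR2 genes of 5 lay below 0 in both comparisons with Matrigel, but 1 of 3 lay above 0 in Instigator arrays after quantile normalization, after centring each array or without Matrigel 3. Seh1l differed by -0.23 (SE 0.10) between Instigator and Matrigel at the brightest of its 6 sets, by -0.08 over the mean of the 6 and by -0.11 without Instigator 4 and Matrigel 3, and Sec13 by -0.20 (SE 0.14), or -0.07 without those arrays.

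Among the amino acid sensors 5 of 8 genes were measured, and 1 lay above 0 for Instigator against Matrigel. After quantile normalization, after centring or without Matrigel 3 it was 4 of 5, so this list has no settled direction. Sesn3, of the sestrin family of stress-induced mTORC1 inhibitors, differed by -0.23 (SE 0.21) from Matrigel and by -0.33 (SE 0.20) from Non-instigator arrays. Its relative Sesn1 differed by -0.15 (SE 0.19) between the tumour groups, or -0.30 without Instigator 4 and Matrigel 3, and the leucine tRNA ligase gene Lars by 0.09 (SE 0.11) between Instigator and Matrigel. Folliculin (Flcn), which acts on RagC and RagD, was the 1 measured gene of 3 in its list and differed from Matrigel by 0.16 (SE 0.13) in Instigator and by 0.24 (SE 0.13) in Non-instigator arrays, and by -0.09 (SE 0.12) between the tumour groups. Without Instigator 4 and Matrigel 3 the first became 0.03 and the last -0.16, and over the mean of its 3 sets all were 0.13 or less.

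Within mTORC1 and its activator Rheb, 5 of 7 genes were measured and 2 lay above 0 for Instigator against Matrigel, or 4 of 5 without Instigator 4 and Matrigel 3. The inhibitory subunit gene Deptor differed by -0.37 (SE 0.23), by -0.19 over the mean of its 3 sets and by -0.08 without Instigator 4 and Matrigel 3, and the shared subunit gene Mlst8 by 0.24 (SE 0.13), or 0.03 over the mean of its 2 sets. Rheb itself differed by -0.12 (SE 0.10) between Non-instigator and Matrigel, and by -0.0087 without Matrigel 3. Tsc1 and Tsc2, which restrain Rheb, were both above 0, at 0.27 (SE 0.20) and 0.11 (SE 0.17) for Instigator against Matrigel, and Tbc1d7 was not measured. Without Instigator 4, however, 1 of the 2 lay above 0 and their median was 0.03, against 0.19 with all arrays, and Tsc1 differed by 0.07 over the mean of its 2 sets. Among mTORC1 targets 6 of the 9 measured lay above 0. The autophagy kinase gene Ulk1 differed by 0.43 (SE 0.13) in Instigator and by 0.39 (SE 0.13) in Non-instigator arrays, each against the same Matrigel arrays, and by 0.24 and 0.28 without Instigator 4 and Matrigel 3. With the mean of its 2 sets Ulk1 differed by 0.12 and 0.08. The translation repressor gene Eif4ebp1 differed by 0.40 (SE 0.17) between Instigator and Non-instigator arrays, and by 0.21 both without Instigator 4 and Matrigel 3 and over the mean of its 3 sets. Ribosomal protein gene Rps6 differed by 0.30 (SE 0.19) between the same groups, or 0.12 without those arrays, and the lysosomal regulator gene Mitf by -0.23 (SE 0.21) between Non-instigator and Matrigel. Eif4ebp2, named here after its value was seen because its interval excluded 0, differed by 0.26 (SE 0.09) between Instigator and Matrigel at the brightest of its 5 sets and by -0.23 over the mean of the 5.

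Of the MEK and ERK kinases tied to the Lamtor2-Lamtor3 pair, 2 of 4 were measured. The MEK1 gene Map2k1 differed by 0.30 (SE 0.13) between Instigator and Matrigel, by 0.12 without Instigator 4 and Matrigel 3, and the MEK2 gene Map2k2 by -0.03 (SE 0.08), or 0.05 without them and -0.12 over the mean of its 2 sets. BORC, which Ragulator restrains and which moves lysosomes outwards, had 3 of 8 genes measured. Its gene Borcs5 differed by -0.29 (SE 0.15) between Instigator and Matrigel, and by -0.08 without the 2 arrays that stood apart. Borcs7 differed by -0.17 (SE 0.10) between Non-instigator and Matrigel, or -0.05 without Matrigel 3, and Snapin by 0.15 (SE 0.12) between the tumour groups, or 0.08 without Instigator 4, and by -0.02 over the mean of its 2 sets.

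**Figure D4:**
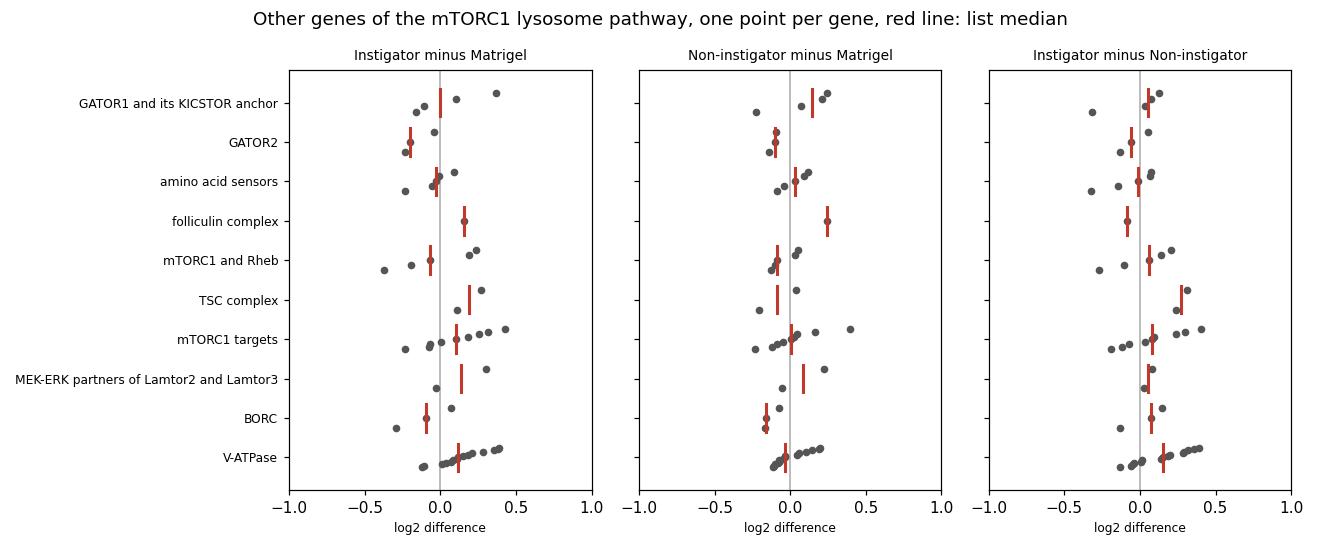
Difference between group means on the log2 scale (x axis) for the 49 other pathway genes, 1 point per gene at its brightest probe set, in 10 lists (y axis) and 3 comparisons; the red line is the list median. In the comparisons with Instigator arrays 13 and 11 of the 15 V-ATPase genes lie to the right of 0, with medians of 0.11 and 0.16 that were 0.04 and 0.07 without Instigator 4, and none of the genes was called.

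The mean of the 5 Lamtor genes, each centred over the 14 arrays at its brightest probe set, ran from -0.10 on Matrigel 1 to 0.14 on Matrigel 4, so that both extremes belonged to 1 group. The genes ranked most like this mean among 12385 by Spearman's rho over 14 arrays were Tmem150b (0.91), Bcl2l13 (0.90), Pcdhb2 (0.87), Trmt44 (0.87) and Cnih4 (0.86). Without Instigator 4 and Matrigel 3 their Pearson correlations with it over 12 arrays were 0.84, 0.77, 0.81, 0.79 and 0.87. For Rragd the top genes were Stx6 (0.89), Fancm (0.85), Prkra (0.85), Sema3b (0.83) and Atf6b (0.82), with Pearson correlations of 0.78, 0.61, 0.60, 0.61 and 0.77 over those 12 arrays. The same search was made for the Lamtor1 and Lamtor2 sets after their values were seen. It gave Eral1 (0.87), Ppp2r1a, Zfp111, Kyat3 and Siglec1 for Lamtor1, and Znrf2 (0.88), Raly, Cdk2ap2, Tcam1 and Fbf1 for Lamtor2. These are the highest of many correlations over arrays that share their groups, and they are given as a description.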

How the data were processed

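The authors deposited 1 linear intensity value for each of 22690 probe sets and 14 arrays. The submitters' processing notes name RMA, affy and R 2.11.0, with no options. Values were not normalized again, log2 was taken, and 64 control probe sets were left out. Names came from the platform annotation, where 20380 probe sets carry 1 symbol, 691 several and 1555 none. Of the single symbols 20351 were found in RefSeq (GRCm38.p6) and 0 were updated.

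A single limma model (version 3.58.1, under R 4.3.3) was fitted to all arrays with lmFit and eBayes and gave the contrasts, with Benjamini-Hochberg adjustment over 22626 probe sets and a threshold of 0.05. The fit was tested on simulated data. The number of arrays limits the precision. Members, lists and tests were chosen with earlier results of these data known. All members are named. In each pathway list up to 2 genes per comparison with the largest difference are named, at the brightest probe set of each gene, and likeness was ranked by Spearman's rho. Alternatives were other scalings, filters and variance models, arrays left out, a replicate block and Instigator 5 moved. Same-numbered arrays had correlated deviations over 0.1 in 2 of 4, 1 of 4 and 2 of 5 pairs, so the numbers were not taken as pairing. Plots were drawn with matplotlib 3.10.9.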

Additional observations from a re-analysis of the deposited data

Results flagged for a closer look

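In 36 groups of arrays (12 probe sets in 3 groups) 2 arrays lay farther from the rest of their group than Dixon's 95% criterion allows, and chance gives about 5% of groups. Matrigel 3 read 6.19 at the Rragd set, against 5.60 to 5.67 on the other Matrigel arrays. Non-instigator 2 read 5.20 at the dim Lamtor2 set 1435729_at, against 5.42 to 5.48 on the other Non-instigator arrays.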

How the results depend on the processing

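For Instigator against Matrigel the median over the 12 probe sets, -0.05 as reported, was 0.0226 with each array centred on its median, 0.0558 with array weights and 0.0295 without Instigator 4 and Matrigel 3, and ran from -0.1024 to 0.0578 when 1 array was left out, the highest without Matrigel 3; the cause was not tested. It ran from -0.07 to 0.03 for Non-instigator against Matrigel and from -0.0022 to 0.04 for Instigator against Non-instigator. Limma called 1 of 22626 probe sets for Instigator against Matrigel without Instigator 4 and Matrigel 3, and 0 to 1 with 1 array left out, the 1 without Instigator 4. With 1 array left out it called 0 in the other 2 comparisons, with 182 to 1279 and 714 to 1936 probe sets at an unadjusted p under 0.05. With the replicate number as a block limma called 0 in each comparison (2146, 513 and 1298 at an unadjusted p under 0.05), and Lamtor1 1417463_a_at differed by 0.33 and 0.40 from Matrigel and Non-instigator; the block changed no call. Of 114 recomputed medians and counts 6 moved, those given above. The 654 recomputed differences of single member probe sets moved by less than the SD between arrays, but 21 of the 36 differences changed sign under at least 1 alternative. Those of Lamtor1 1417463_a_at and Lamtor2 1422797_at that involve Instigator arrays kept their sign in all. For the pathway lists, genes above 0 for Instigator against Matrigel numbered 28 (without Instigator 4) to 37 (each array centred) of 49 under the alternatives added after the data were seen. With few arrays and dim sets for Rragd and 1 Lamtor2 set, small differences were not detectable.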
